A study of Mus musculus with 6 samples.

Results

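Serpins are a family of proteins that share one fold, and most of them inactivate a protease by acting as a bait that the enzyme cuts and is then trapped on. Those of clade A, C, D, F and G are largely secreted and hold back coagulation, plasmin, complement and leukocyte elastase, while those of clade B stay mostly inside cells and protect them from their own granule and lysosomal proteases. A few no longer inhibit anything, such as the collagen chaperone Serpinh1 and the hormone carrier Serpina6. The serpin genes were taken as all genes with a symbol from Serpina to Serpini that at least 1 probe set of the array names alone, which gave 40 genes of 17097. They were read by 55 probe sets, and each gene is given by its brightest one, the one with the highest mean over the 6 arrays. Other members of the family were not analysed here.

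The samples were gastrocnemius muscles of male Slc: ICR mice, an outbred stock, 7 weeks old at the start. The MA group ate an AIN-93G diet with 0.27% maslinic acid (MA), a pentacyclic triterpene of olive peel, and the control group ate AIN-93G alone. In both groups a piece of the sciatic nerve was removed on both sides after a week of diet, and the RNA was taken on day 14, so that denervation is shared by MA and control, and muscle with an intact nerve was not analysed here. Each group had 3 Affymetrix mouse arrays. Whether the 3 arrays of a group are of separate mice is not given in the sources used here. The p-values therefore cover the spread among these arrays alone, which may be technical.

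Values are log2 signals as RMA gives them, and a difference is MA minus control on that log2 scale with the standard error (SE) of limma. A gene is called higher or lower where limma's p, adjusted by Benjamini-Hochberg over 45037 probe sets, was under 0.05. Background is 3.90, the highest mean among 22 control probe sets for nonspecific binding. The arrays correlated at r = 0.9992 to 0.9997 within groups and 0.9934 to 0.9937 between groups, a correlation over probe sets of shared origin that gives no test. The hybridization controls added to every sample were higher in MA in all 18 of their probe sets (median difference 0.17, largest 0.35, a fold of 1.28). Markers of skeletal muscle fibers were the brightest of the marker lists, with 4 of 6 called higher in MA (24.7% of all genes were) and none lower. The 4 differed by 0.13 (Acta1) to 0.18 (Mylpf), about the size of the median difference of the hybridization controls. In RNA of whole muscle, fewer cells of a type and less RNA per cell cannot be told apart.

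Of the 40 serpin genes, 6 were higher and 5 were lower in MA, and 29 did not pass the test. Over all 17097 genes, 24.7% were called higher and 23% lower. In either direction 27.5% of the serpins were called, against 47.8% of all genes, and the difference of these shares was not tested. Many serpins were dim: the mean of the 6 arrays was not above background for 22 of 40, or 55%, against 27.7% of all genes. Of the 18 serpins with a mean above background 7 were called, where 56.7% of all such genes were. At the thresholds of the study's methods, p under 0.05 and a fold over 1.2, 3 serpins were higher in MA (5.92% of all genes were) and 2 were lower (6.87% of all genes were). These were Serpinb8, Serpinb1a and Serpina1c on the higher side and Serping1 and Serpinb9 on the lower side. The arrays of MA and control did not overlap for 17 of 40 serpins, with MA above in 10 and below in 7, and they did not overlap for 58.6% of all genes. The median difference over the serpins was 0.03 and the median size of a difference 0.06, against 0.01 and 0.08 over all genes.

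**Figure D1:**
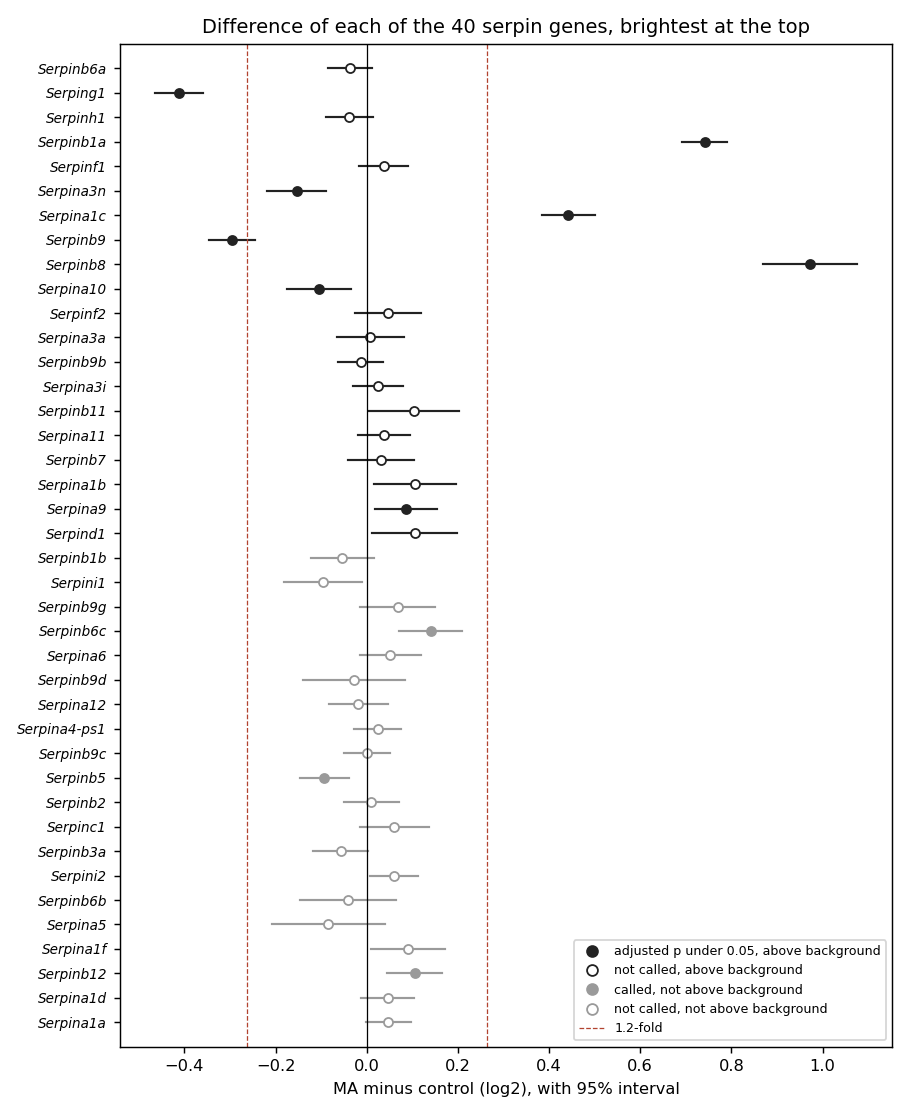
Difference between MA and control (x axis, log2) of each of the 40 serpin genes, ordered by brightness from the top, with the 95% interval of limma as a line and the 1.2-fold limits dashed. Filled points have an adjusted p under 0.05, grey ones have no group mean above background, and 5 genes lie beyond 1.2-fold.

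Promoters are shown for Serpinb8, Serpinb9 and Serpina1c, in which letters of well-known regulatory motifs were found, and for Serpina1b, a close copy of Serpina1c. Those of Serpinb1a and Serping1 were not analysed here. They are RefSeq sequences of build GRCm38.p6 in the direction of transcription, each the last 150 or 170 bases of a window of 300 bases around the gene's start. Capitals mark the AP-1 letters TGANTCA in Serpinb8 (chr1:107589906-107590055, plus strand), the interferon-stimulated response element GAAANNGAAA, here on the opposite strand, in Serpinb9 (chr13:33004441-33004590, plus strand), and the HNF1 half-site GTTAAT in Serpina1c (chr12:103904901-103905070, minus strand) and Serpina1b (chr12:103738140-103738309, minus strand).
Serpinb8: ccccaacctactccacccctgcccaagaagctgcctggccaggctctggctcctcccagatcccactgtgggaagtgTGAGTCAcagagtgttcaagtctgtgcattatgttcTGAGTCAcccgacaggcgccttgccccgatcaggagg
Serpinb9: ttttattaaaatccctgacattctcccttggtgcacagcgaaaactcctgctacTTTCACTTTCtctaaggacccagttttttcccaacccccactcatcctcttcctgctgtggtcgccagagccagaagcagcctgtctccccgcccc
Serpina1c: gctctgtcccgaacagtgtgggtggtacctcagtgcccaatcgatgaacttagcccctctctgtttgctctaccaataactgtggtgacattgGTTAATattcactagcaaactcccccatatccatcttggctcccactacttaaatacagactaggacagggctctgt
Serpina1b: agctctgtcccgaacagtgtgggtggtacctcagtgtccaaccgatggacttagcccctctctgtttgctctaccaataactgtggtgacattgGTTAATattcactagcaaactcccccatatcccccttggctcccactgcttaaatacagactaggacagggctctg

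Both strands were searched in the windows of the 34 serpins that have one, 39 windows in all. The AP-1 letters were in 10 of the 34 serpins, the half-site of HNF1 in 6, the interferon-stimulated response element in 3, and the gamma-activated site TTCNNNGAA in 6. Counted by window, as the shares below are, these were 11, 6, 3 and 8 of the 39 windows. Over all 32851 windows of this length, 7.81% held the AP-1 letters, 7.1% the half-site of HNF1, 3.44% the interferon-stimulated response element and 8.3% the gamma-activated site. No 2 of these motifs have the same letters, but matches of different motifs can overlap. The 10 serpins with AP-1 letters and the 6 with the half-site of HNF1 both include the copies Serpina1a, Serpina1b, Serpina1c and Serpina1d, whose windows are 85.2% to 91.4% identical in pairs, so they are not separate cases. A match describes letters in a window and does not show that a factor binds there.

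Serpinb8 and Serpinb1a, both of the intracellular clade B, had the largest differences of the 40 genes. Serpinb8, an inhibitor of the proprotein convertase furin, had log2 signals of 5.16, 5.14 and 5.16 in the MA arrays, against 4.21, 4.26 and 4.07 in the control arrays. All MA arrays were above all control arrays, and the lowest control array was the one that widened the control spread. The difference was 0.97 (SE 0.045, adjusted p = 9.9e-07), a fold of 1.96. Serpinb1a, a mouse ortholog of the human inhibitor of neutrophil elastase and cathepsin G, had 8.72, 8.70 and 8.72 in the MA arrays, against 7.96, 7.99 and 7.96 in the control arrays. The groups stood 0.71 apart at their nearest arrays. The difference was 0.74 (SE 0.022, adjusted p = 7.1e-08), a fold of 1.67 with a 95% interval on the log2 scale of 0.69 to 0.79. The leukocyte proteases that Serpinb1a is known to inhibit were dim in this tissue: Ctsg averaged 3.73 ± 0.014 in MA and 3.75 ± 0.021 in control (SD, n = 3 each), under the background, and Elane lay close to it, with a difference of 0.07 (adjusted p = 0.11 in limma). Both proteases were picked for this role after their values were seen.

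Serpinb9, the intracellular inhibitor of granzyme B, was lower in MA. It had log2 signals of 5.08, 5.11 and 5.09 in the MA arrays, against 5.41, 5.38 and 5.38 in the control arrays. The groups did not overlap, and the difference was -0.29 (SE 0.022, adjusted p = 1.5e-05), a fold of 1.23. With the mean of its probe sets, the second of which was dim, the difference was -0.15, below 1.2-fold. Gzmb itself, granzyme B, picked here as its target after its value was seen, averaged 3.96 ± 0.037 in MA and 4.05 ± 0.011 in control (SD, n = 3 each), a difference of -0.09 (adjusted p = 0.026 in limma) close to background. Of the 7 markers of T and NK cells, 1 was higher, 2 were lower and 4 were not called (42.9% called, against 47.8% of all genes). These markers had summed linear signals of 156 to 160 in MA and 162 to 166 in control, and their part in the Serpinb9 result was not tested. In such sums, here and below, the background was not subtracted.

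Serpinb6a, an inhibitor of cathepsin G and related proteases, was the brightest serpin of the array. It had 11.74, 11.74 and 11.71 in the MA arrays, against 11.77, 11.77 and 11.76 in the control arrays. The groups did not overlap, but they lay close together, and the difference of -0.04 (SE 0.021, adjusted p = 0.20, 95% interval -0.08 to 0.01) did not pass the test. It passed in 2 alternatives, the one-way test of the methods (adjusted p = 0.048) and eBayes with a trend (adjusted p = 4.5e-04), at the same difference. The other clade B genes were dimmer. Serpinb6c (0.14, adjusted p = 0.0057) and Serpinb12 (0.11, adjusted p = 0.013) were called higher and Serpinb5, known as maspin (-0.09, adjusted p = 0.013), lower, all 3 with both group means under background. The remaining 10 genes of clade B (Serpinb9b, Serpinb11, Serpinb7, Serpinb1b, Serpinb9g, Serpinb9d, Serpinb9c, Serpinb2, Serpinb3a and Serpinb6b) were not called, with differences from -0.06 in Serpinb3a to 0.10 in Serpinb11.

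**Figure D2:**
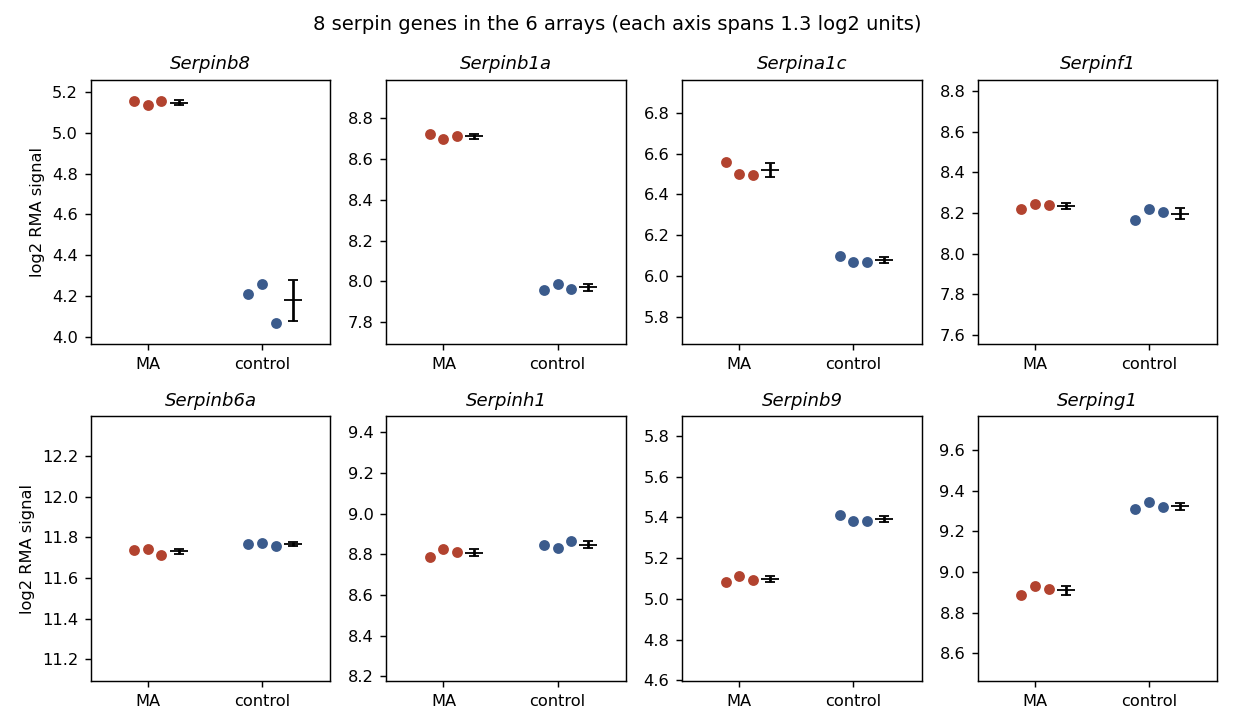
Log2 RMA signal (y axis) of 8 serpin genes in each of the 3 MA and the 3 control arrays, with the group mean and SD beside the points, on axes of equal span. The MA arrays of Serpinb8, Serpinb1a and Serpina1c lie above the control arrays, those of Serping1 and Serpinb9 lie below, and the groups of Serpinf1, Serpinb6a and Serpinh1 lie within 0.04 of each other on average.

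Serping1, the C1 inhibitor that blocks the first proteases of complement and the kallikrein of the contact system, showed the largest fall of a serpin in MA. It had log2 signals of 8.89, 8.93 and 8.92 in the MA arrays, against 9.31, 9.34 and 9.32 in the control arrays. The groups were far apart beside their spread, and the difference was -0.41 (SE 0.023, adjusted p = 2.8e-06), a fold of 1.33. Among the proteases it blocks, C1ra and C1s1 were lower, while Klkb1, the kallikrein, picked for this role after its value was seen, differed by 0.00 (adjusted p = 0.93). Klkb1 averaged 4.15 in MA and 4.15 in control, not far above background. C1ra averaged 5.05 ± 0.048 in MA and 6.28 ± 0.063 in control (SD, n = 3 each), a difference of -1.22 (adjusted p = 1.0e-07 in limma). C1s1 averaged 7.04 ± 0.050 in MA and 7.99 ± 0.007 in control (SD, n = 3 each), a difference of -0.95 (adjusted p = 8.2e-08 in limma). Cfb, the protease subunit of the alternative pathway, differed by -0.91 (adjusted p = 2.5e-08). Of the 8 early complement proteases measured, 6 were lower, 1 was higher (Masp1, of the lectin pathway, by 0.29) and 1 was not called. This is 87.5% called, against 47.8% of all genes, with a median difference of -0.49 against 0.01 over all genes. Masp2, among the lower genes, was under background in both groups (3.53 in MA and 3.67 in control on average). Markers of macrophages moved in the same direction, with 6 of 7 lower, where 23% of all genes were, and 1 not called (Cd68). The macrophage markers had summed linear signals of 1524 to 1568 in MA and 2422 to 2482 in control. Lyz2, their brightest, averaged 10.08 in MA and 10.77 in control and makes up most of both sums. Markers of fibroblasts did not move together: of 6, 2 were higher in MA, 1 was lower and 3 were not called (50% called, against 47.8% of all genes). What part macrophages or fibroblasts have in the fall of Serping1 and of the complement genes was not tested.

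Serpina1c, one of several mouse copies of alpha-1-antitrypsin, the main plasma inhibitor of neutrophil elastase, was higher in MA. It had log2 signals of 6.56, 6.50 and 6.50 in the MA arrays, against 6.10, 6.07 and 6.07 in the control arrays. The groups did not overlap, and the difference was 0.44 (SE 0.025, adjusted p = 3.2e-06), a fold of 1.36. The other copies were dim and not called, with differences of 0.11 in Serpina1b (adjusted p = 0.060), 0.09 in Serpina1f (0.073), 0.05 in Serpina1d (0.18) and 0.05 in Serpina1a (0.11). Transcripts of Serpina1a to Serpina1d are close copies, so which of them the Serpina1c probe set reads is uncertain. Alpha-1-antitrypsin is made mainly by the liver, and of 6 hepatocyte markers 1 was higher in MA (Apoa2, by 0.10) and 5 were not called. This is 16.7% called, against 47.8% of all genes, with summed linear signals of 118 to 119 in MA and 116 to 121 in control. Alb, albumin, was under background in both groups, at 3.83 in MA and 3.79 in control on average.

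Serpina3n, a secreted serpin of the antichymotrypsin group, was lower in MA by 0.15 on the log2 scale (difference -0.15, SE 0.028, adjusted p = 0.0027), with 6.68, 6.61 and 6.59 in the MA arrays, against 6.79, 6.77 and 6.78 in the control arrays. The groups did not overlap, and the difference was under 1.2-fold. Serpina10, an inhibitor of activated factor X that works with protein Z, was lower by a difference of -0.11 (adjusted p = 0.024), and Serpina9 was higher by 0.09 (adjusted p = 0.045), near the threshold. Both calls were marginal: that of Serpina10 was lost without MA 1, MA 2, MA 3 or control 2 (differences -0.11 to -0.07, adjusted p = 0.056 to 0.069 in limma), and that of Serpina9 without MA 1, MA 2, MA 3, control 1 or control 3 (differences 0.06 to 0.10, adjusted p = 0.061 to 0.12 in limma). The other clade A genes were not called: Serpina3a, Serpina3i, Serpina11, Serpina6 (the corticosteroid-binding globulin), Serpina12 (vaspin), Serpina5 (the protein C inhibitor) and the pseudogene Serpina4-ps1 differed by -0.08 in Serpina5 to 0.05 in Serpina6.

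Serpinh1, also called Hsp47, is the chaperone that holds the collagen triple helix together in the endoplasmic reticulum. It had 8.79, 8.83 and 8.81 in the MA arrays, against 8.85, 8.83 and 8.87 in the control arrays. The groups came within 0.01 of each other, and the difference of -0.04 (SE 0.022, adjusted p = 0.20, 95% interval -0.09 to 0.01) did not pass the test. Of 13 other genes that fold and modify collagen, 7 were lower in MA, 1 was higher and 5 were not called, with a median difference of -0.07. This is 61.5% called, against 47.8% of all genes. Colgalt1, which adds galactose to collagen, averaged 7.11 ± 0.026 in MA and 7.61 ± 0.020 in control (SD, n = 3 each), and Plod1, a lysyl hydroxylase, averaged 5.52 ± 0.11 in MA and 6.01 ± 0.011 in control (SD, n = 3 each). The brightest called genes of this list were P4hb, the beta subunit of prolyl 4-hydroxylase (difference -0.10), Mia3, needed for collagen export (-0.16), and Ppib, a prolyl isomerase (-0.07). Collagen chains are not in this list. Of those among the fibroblast markers, Col1a1 was higher in MA by 0.59 (adjusted p = 3.3e-06 in limma). Col1a2 was not called (0.10, adjusted p = 0.052 in limma), with both group means under background.

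Serpinf1, the pigment epithelium-derived factor, is a secreted serpin that inhibits no protease and acts through cell surface receptors. It had 8.22, 8.24 and 8.24 in the MA arrays, against 8.17, 8.22 and 8.20 in the control arrays. The groups only just failed to overlap, and the difference of 0.04 (SE 0.023, adjusted p = 0.23, 95% interval -0.02 to 0.09) did not pass the test. The mean of its probe sets differed by 0.08 and did pass (adjusted p = 0.0060). Of 7 receptors and cofactors of serpins, 2 were higher, 2 were lower and 3 were not called (57.1% called, against 47.8% of all genes). Plxdc2, described as a receptor of Serpinf1, averaged 7.49 ± 0.002 in MA and 6.99 ± 0.016 in control (SD, n = 3 each). Pnpla2 and Plxdc1, other receptors of this list, were not called (differences -0.01 and -0.04, adjusted p = 0.87 and 0.35 in limma). Vldlr, a receptor that takes up serpin-protease complexes, differed by 0.30. Lrp1, the main clearance receptor of such complexes, averaged 7.51 ± 0.034 in MA and 8.07 ± 0.011 in control (SD, n = 3 each), and Vtn, vitronectin, differed by -0.60.

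Of the remaining serpins, of clades C, D, F and I, several of which control coagulation or plasmin, none was called. Serpinf2 was above background, with means of 4.67 in MA and 4.63 in control, and the others were near or under it. Serpinf2, the plasmin inhibitor, differed by 0.05 (adjusted p = 0.27), Serpind1, heparin cofactor II, by 0.11 (0.068), Serpinc1, antithrombin, by 0.06 (0.17), Serpini1, neuroserpin, by -0.10 (0.069) and Serpini2 by 0.06 (0.064). Of 23 genes of the coagulation and plasminogen system itself, 3 were higher in MA, 6 were lower and 14 were not called. This is 39.1% called, against 47.8% of all genes, with differences from -0.90 to 1.05 around a median of -0.01. F2r, the thrombin receptor PAR1, had 9.08, 9.08 and 9.08 in the MA arrays, against 8.00, 8.04 and 8.05 in the control arrays, a difference of 1.05 (SE 0.022, adjusted p = 1.2e-08). Procr, the receptor of protein C, averaged 6.30 ± 0.024 in MA and 7.20 ± 0.11 in control (SD, n = 3 each), a difference of -0.90 (adjusted p = 2.9e-06 in limma). F13a1, the subunit of factor XIII that crosslinks fibrin, differed by -0.42 (adjusted p = 1.1e-05). Markers of endothelium, where Procr is known to lie, were lower in 5 of 6, where 23% of all genes were, and not called in 1. These markers had summed linear signals of 222 to 226 in MA and 251 to 265 in control, and their part in the result was not tested.

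Proteases of leukocytes and of lysosomes were compared in 2 lists, which were not limited to targets of clade B serpins. Of 14 leukocyte serine proteases, 4 were lower, 1 was higher and 9 were not called (35.7% called, against 47.8% of all genes). Not above background were 8 of the 14. Gzma, granzyme A, had 4.03, 3.90 and 3.92 in the MA arrays, against 4.27, 4.28 and 4.25 in the control arrays, a difference of -0.32 (adjusted p = 1.9e-04), and Gzmk, granzyme K, differed by -0.24. Tpsb2, a tryptase of mast cells, differed by -0.09. All 12 lysosomal cathepsins were above background, but Ctso, which was not called, only just (3.93 in MA and 3.94 in control on average). Of the 12 genes 9 were lower in MA, 2 were higher and 1 was not called, with a median difference of -0.28. This is 91.7% called, against 47.8% of all genes. Ctss, cathepsin S of antigen-presenting cells, averaged 8.19 ± 0.049 in MA and 8.99 ± 0.013 in control (SD, n = 3 each), and Ctsz averaged 8.21 ± 0.030 in MA and 8.89 ± 0.012 in control (SD, n = 3 each). Ctsd and Ctsb, the abundant lysosomal cathepsins D and B, differed by -0.25 and -0.29, while Ctsl, cathepsin L, was higher by 0.24. The macrophage markers, whose sums are given above, were lower in the same arrays, and their part in the cathepsin counts was not tested. Of 20 protease inhibitors that are not serpins, 6 were higher, 3 were lower and 11 were not called (45% called, against 47.8% of all genes). Wfdc1, of the whey acidic protein family, was higher by 0.80 and Cst6, cystatin E/M, by 0.47, while Cstb, cystatin B, was lower (difference -0.37), as were the bright Cst3, cystatin C (-0.12), and Pebp1 (-0.12).

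**Figure D3:**
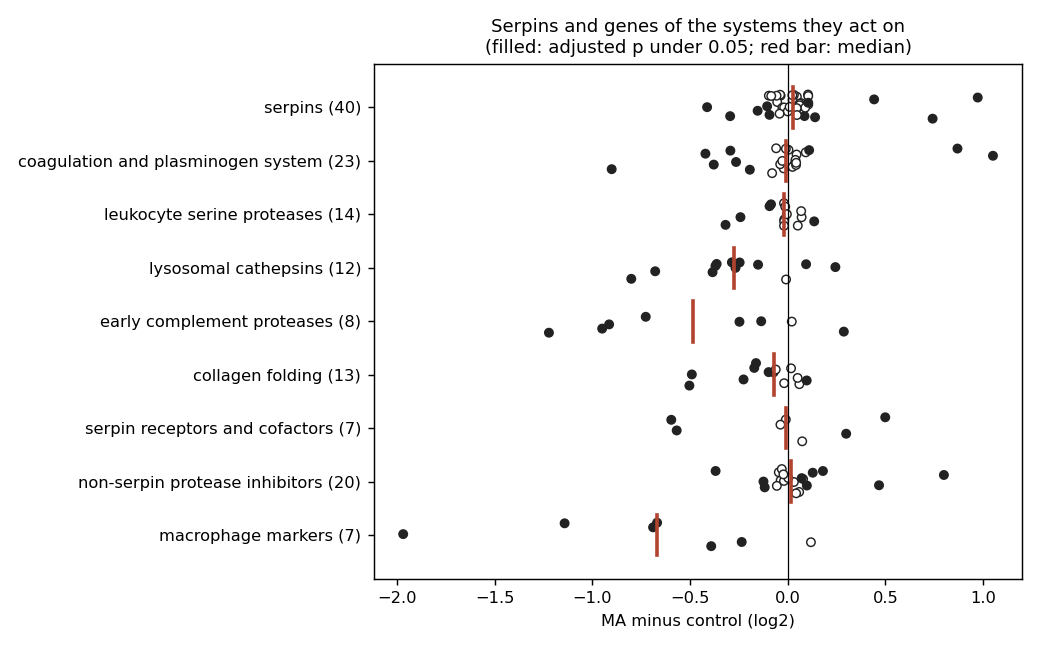
Difference between MA and control (x axis, log2) of each gene of the serpin family and of 8 other lists, with the number of genes in brackets, filled points for an adjusted p under 0.05 and a bar at the median. The serpins centre on 0.03, the cathepsins on -0.28, the early complement proteases on -0.49 and the macrophage markers on -0.67.

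Serpin genes lie in clusters that arose by duplication, and called members of one cluster lay on both sides of 0. Among all genes 24.7% were called higher and 23% lower, so calls on both sides are not particular to these clusters. On chromosome 13, where 10 of the 40 genes lie, Serpinb1a was higher, Serpinb9 was lower and Serpinb6a was not called, with Serpinb6b between Serpinb1a and Serpinb9 in the RefSeq order of these 40 genes (difference -0.04, adjusted p = 0.50). On chromosome 1 Serpinb8 was higher by 0.97. The genes beside it in that order, which gives no distance, were Serpinb2 and Serpinc1, the latter of clade C. They differed by 0.01 (adjusted p = 0.79) and 0.06 (adjusted p = 0.17) in limma, both under background. On chromosome 12, 15 genes of clade A lie, of which 2 were higher, 2 were lower and 11 were not called. The shares called were 26.7% on chromosome 12, 30% on chromosome 13 and 37.5% on chromosome 1, against 47.8% of all genes.

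More than 1 probe set read 13 of the 40 genes, and these show how far a value rests on the chosen one. For Serpinb1a the second probe set gave a difference of 0.86 (adjusted p = 2.2e-06), in the same direction as the brightest. For Serpinb8 the second was dim, with 3.49 ± 0.026 in MA and 3.19 ± 0.056 in control (SD, n = 3 each), and gave 0.30 (adjusted p = 1.3e-04 in limma), so that the mean of both probe sets differed by 0.64. For Serpinb9 the second, also under background, gave -0.01 (adjusted p = 0.82). The second probe set of Serpinf1 was called higher (0.13, adjusted p = 0.0080) where the brightest was not, and that of Serpina1b, under background, was called lower (-0.14, adjusted p = 0.015). Serpini1 had 1 dim probe set called lower (-0.16, adjusted p = 0.0042) among its 3. The second probe set of Serpinh1 gave -0.05 (adjusted p = 0.077). By their names, the brightest probe sets of Serpinh1, Serpina1a, Serpina1b, Serpina1d, Serpina10, Serpinb3a, Serpinb6c, Serpinb9g and Serpini2, and the second of Serpinb1a, are of a kind (s_at or x_at) that can match more than 1 transcript or gene. Their values are uncertain to that extent. The same holds for C1s1, Masp1, F2r, Procr, Mia3 and Lyz2 of the other lists, and for C1rb, among the lower complement genes.

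**Figure D4:**
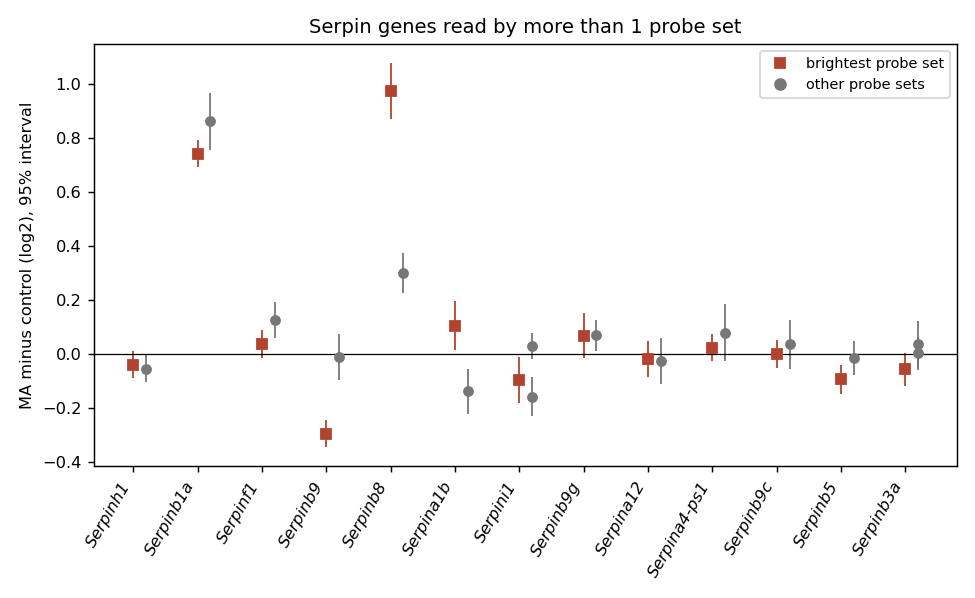
Difference between MA and control (y axis, log2, with the 95% interval of limma) of every probe set of the 13 serpin genes that have more than 1, squares for the brightest and circles for the others. Both probe sets of Serpinb1a and of Serpinb8 lie above 0, while those of Serpinb9 lie at -0.29 and -0.01.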

How the data were processed

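Gastrocnemius RNA of denervated mice was labelled with a 3' IVT kit and hybridized to 6 Affymetrix GeneAtlas mouse arrays, 3 for MA and 3 for control. The deposited log2 values were made by the authors with RMA (background correction, quantile normalization and summary per probe set) in Expression Console, whose version is not given in the sources used here. RMA lets the dimmest genes differ less than their RNA does. A human array is named in the series' design text, whereas the probe set IDs belong to the mouse array. The sources do not say which arrays shared a strip.

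The values were used without further normalization. The array medians lay between 4.266 and 4.276, and the median SD within groups was 0.0365. Scanner files were not used here, so depth is given only as signal over background, and the number of arrays limits the precision. After 104 control probe sets were set aside, 45037 were fitted in R 4.3.3 with limma 3.58.1 (lmFit and eBayes, MA minus control, 2-sided, Benjamini-Hochberg). With 3 arrays a group, the smallest 2-sided p of an exact permutation test is 0.1. Of the probe sets, 28898 named 1 gene by the platform annotation, 551 several and 15588 none. All 40 serpins matched RefSeq (GRCm38.p6) by gene ID. Motifs were searched with Biopython 1.88. The fit was tested on simulated data.

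Values by array are given for serpins with an adjusted p under 0.05, a fold over 1.2 and a group mean above background, and for the 5 brightest. Of each pathway list, the 3 brightest called genes and the 2 with the largest difference above background are named. The rule does not cover the cell type markers. Serpina3n, Masp1, Masp2, C1rb, Klkb1, Elane, Ctsg, Gzmb, Ctso, Pnpla2 and Plxdc1, and the markers Cd68, Apoa2, Alb, Lyz2, Col1a1 and Col1a2, fall outside it and were chosen after their values were seen. Background was to be the highest mean of the 23 control probe sets for nonspecific binding. One of them stood at 7.24, between 7.11 and 7.33 in the arrays, and was set aside after its value was seen. With it, 2 serpins (Serpinb1a and Serping1) would have passed as called above background. The serpins and the gene lists were chosen with earlier results of these data known.

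The numbers in the array titles were not taken to pair MA with control, since the deviations of arrays with the same number correlated at 0.04 to 0.19. Alternatives covered the test (the methods' one-way test, a trend or robust moderation in eBayes, array weights, a replicate block), the scaling (quantile normalization repeated, arrays centred on their medians), the genes (dim probe sets filtered out, probe sets of a gene averaged), the call (a fold limit beside the adjusted p) and the omission of each array.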

Additional observations from a re-analysis of the deposited data

How the results depend on the processing

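No called serpin changed direction under any alternative, and for the other lists only counts were recomputed. The shares called over all genes were not computed under the alternatives. A changed count, here and in the next paragraph, therefore cannot be told from a shift over all genes. Serpinb8, Serpinb1a, Serpina1c, Serping1 and Serpinb9 kept direction and call in all 16 alternatives, with differences of 0.64 to 1.01, 0.73 to 0.80, 0.42 to 0.48, -0.42 to -0.40 and -0.30 to -0.15. Requiring a fold over 1.2 beside the adjusted p left 3 serpins higher and 2 lower in MA, and 1 leukocyte protease, 7 cathepsins, 2 collagen folding genes and 3 non-serpin inhibitors called, by its construction. The filter on dim probe sets left 3 serpins higher, a median serpin difference of -0.0029 and 1 leukocyte protease, with fewer genes tested. Array weights gave 8 serpins lower, the one-way test of the methods 2 leukocyte proteases, and the mean of a gene's probe sets 1 serpin lower past 1.2-fold, where Serpinb9 dropped out. The cause of the first 2 was not tested. With an array left out, 3 to 5 leukocyte proteases were called (3 without MA 2 and 3 without control 2), and the median serpin difference was 0.016 (without control 1) to 0.041 (without control 2).

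The call of Serpina9 was lost in 11 alternatives, among them without MA 1, MA 2, MA 3, control 1 or control 3 (adjusted p = 0.061 to 0.12 in limma). The call of Serpina10 was lost with the one-way test and without MA 1, MA 2, MA 3 or control 2 (adjusted p = 0.056 to 0.082), and that of Serpinb5 with the mean of its probe sets (adjusted p = 0.061). In 27 cases a serpin that had not been called passed the test under an alternative: Serpinb6a and Serpina1a with the one-way test, Serpinb6a, Serpina1b and Serpina1f with a trend, Serpinf1, Serpini1 and Serpini2 with the mean of probe sets, Serpina1b, Serpinb11 and Serpini1 with the replicate block, these 3 and Serpinb1b, Serpinb3a and Serpind1 with array weights, Serpinb1b and Serpind1 without MA 1, Serpina1f, Serpinb9g and Serpini1 without MA 3, Serpina1b, Serpinb11, Serpind1 and Serpini1 without control 1, and Serpina5 without control 3. With the replicate block, 7 serpins were higher and 6 lower in MA. Signal limits the 20 serpins with no group mean above background, for which a missing call says little.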
